A study of Mus musculus with 18 samples.

Results

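The receptors for GABA and glutamate, the main inhibitory and excitatory transmitters of the brain, were examined in mouse medulloblastomas, tumours of the cerebellum. Members were taken by gene symbol, and these families were chosen with earlier results of these data known. Taken were all genes of the platform annotation named as subunits of GABA-A, AMPA, kainate, NMDA or delta receptors, or as metabotropic glutamate receptors. Each had to be measured by a probe set with exactly 1 symbol. This gave 39 of 19938 genes, namely 16 GABA-A subunits, 16 ionotropic glutamate receptor subunits and 7 metabotropic receptors, and 6 further genes of these families were not analysed here. RNA from 18 tumours had been hybridized to Affymetrix mouse Gene ST 1.0 arrays. The groups were NG (n = 4), GFD (n = 2) and GFI (n = 4) tumours of Ptch mice, NG tumours of Smo;Atoh1-CreER mice (n = 4, written NG-Smo) and GFD tumours of Smo;GFAP-cre mice (n = 4, written GFD-Smo). NG, GFD and GFI are the submitters' subtype names, which their labels leave unexplained, and no age, treatment or exact Ptch or Smo allele is given there. Atoh1 is a gene of granule neuron precursors and GFAP a gene of astrocytes and of many neural progenitors, so the Cre drivers act in different starting cells. All NG tumours of the Smo model carried one driver and all its GFD tumours the other, so subtype and driver cannot be told apart there. One GFI-Ptch array, replicate 4, was labelled as a progression of an earlier tumour. Its host was an NSG female, and the array is named here the transplanted tumour. The labels do not say that replicates came from separate animals, so the p-values cover the spread among these arrays alone, which may be technical.

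A GABA-A receptor is a chloride channel built of 5 subunits, usually alpha, beta and gamma or delta, and the subunit choice sets where the receptor sits and which drugs bind it. Ionotropic glutamate receptors are cation channels built of 4 subunits, while metabotropic glutamate receptors act through G proteins, group I through Gq and groups II and III through Gi. In the normal cerebellum the granule neuron, the lineage from which Hedgehog-driven medulloblastoma arises, switches on the alpha6 subunit as it matures, and Bergmann glia, the astrocytes of the Purkinje cell layer, carry AMPA receptors and their own set of GABA-A subunits.

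Values are deposited log2 levels, in which 1 unit is a doubling of signal. They ranged from 4.219 to 14.318 over all probe sets, and array medians lay between 7.736 and 7.868. Correlations between arrays over all genes were 0.9693 to 0.9976. As a check of the tissue label, the mean of 8 granule neuron progenitor markers was 11.33 to 11.97 in every array. Of 13 arrays labelled male or female, Y-linked genes fitted the label for 10. The 3 exceptions were the transplanted tumour and replicates 2 and 3 of GFD-Smo. No NG-Ptch array and both GFD-Ptch arrays had high Y-linked levels, so sex and subtype cannot be told apart between those groups. Of the 39 receptor genes, 23 had a group mean above the median of all deposited values, 7.803, in at least 1 group and 16 did not. The levels of the 16 dim genes spanned a median of 0.47 over the 18 arrays, against 2.14 for the other 23.

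**Figure D1:**
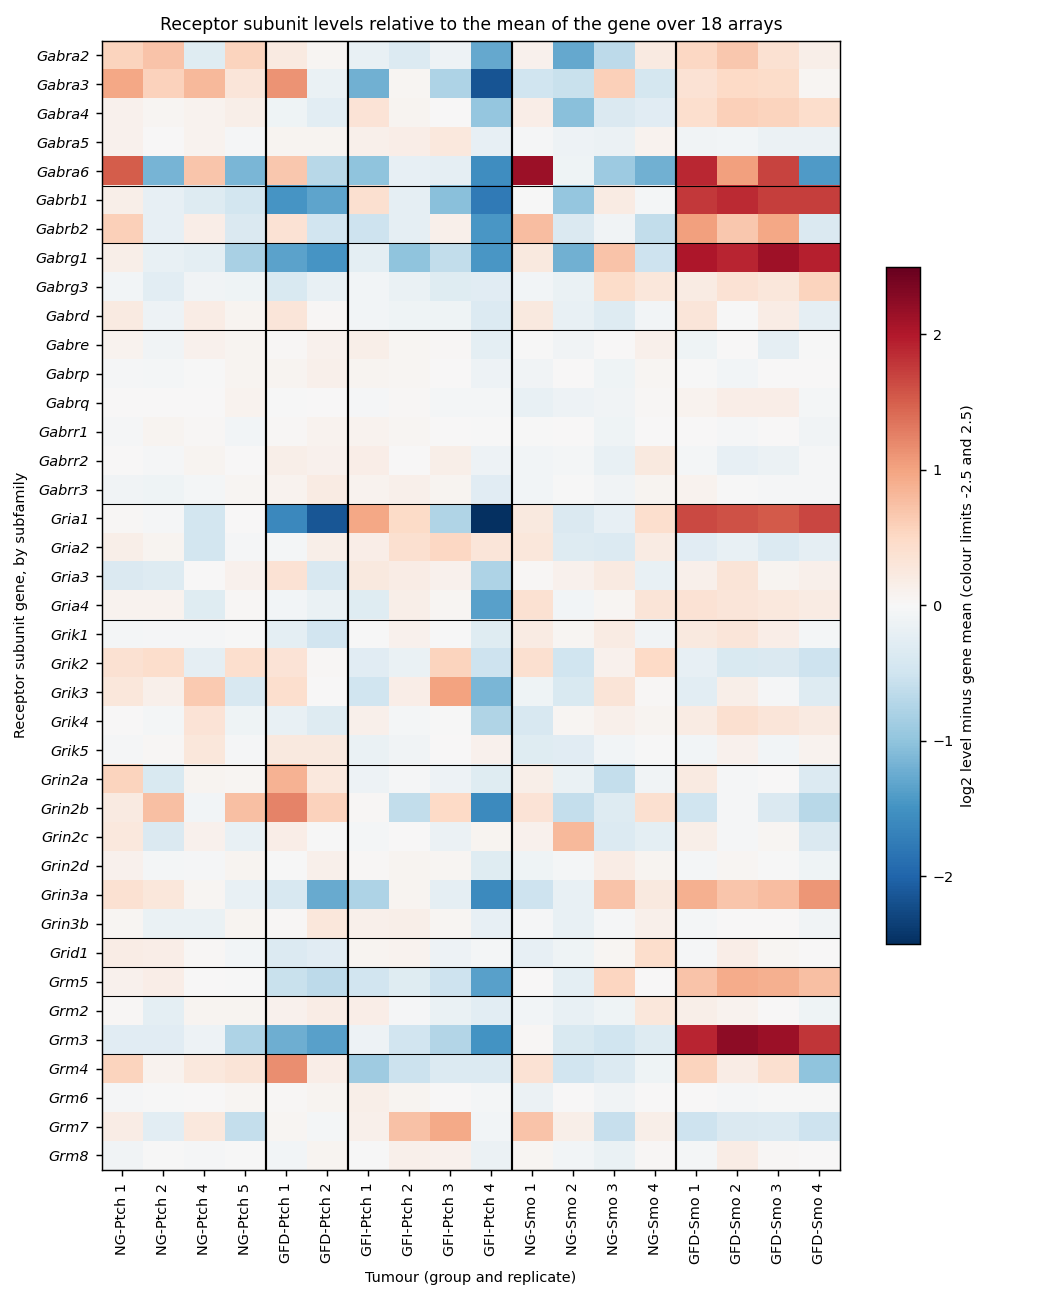
Each cell is the log2 level of a receptor gene (rows, grouped by subfamily between thin lines) in an array (columns, grouped by tumour group between thick lines) minus the mean of the gene over 18 arrays, on a colour scale with equal limits on both sides of 0. Gabrb1, Gabrg1, Gria1 and Grm3 are raised in all 4 GFD-Smo arrays and low in both GFD-Ptch arrays, and the transplanted tumour, GFI-Ptch 4, is the lowest array for 23 genes.

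The first question was which receptors separated the GFD-Smo from the NG-Smo tumours. Higher levels in GFD-Smo were called for Gabrb1, Gabrg1 and Gabra4, which are beta, gamma and alpha subunits of the GABA-A receptor, and for the metabotropic glutamate receptors Grm3 and Grm5. No receptor gene was called lower. Calls were made by limma at an adjusted p under 0.05 over all 19938 genes. They covered 5 of 39 receptor genes (12.8%), against 5.31% of all genes, and for calls in the higher direction against 2.81% of all genes. The median change was 0.12 over the receptor genes and -0.01 over all genes.

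Gabrb1, the beta1 subunit, read 10.46, 10.56, 10.42 and 10.43 in the GFD-Smo arrays and 8.68, 7.74, 8.89 and 8.66 in the NG-Smo arrays. Every GFD-Smo array lay above every array of the other 4 groups, whose highest value was 9.09 in GFI-Ptch replicate 1. The change was 1.98 (SE 0.35), a 3.93-fold higher signal (limma, adjusted p = 0.00292). In bulk tissue such as this, more cells of one type and more RNA per cell cannot be told apart.

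Gabrg1, the gamma1 subunit, which occupies the place of gamma2 in some receptors and is known from Bergmann glia, read 9.66, 9.53, 9.75 and 9.58 in GFD-Smo. NG-Smo arrays spread widely, at 7.88, 6.42, 8.35 and 7.11, and did not reach the GFD-Smo range. The change was 2.19 (SE 0.34, 4.55-fold, adjusted p = 0.00109 by limma).

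Gabra4, an alpha subunit often paired with delta outside synapses, read 9.49, 9.66, 9.62 and 9.51 in GFD-Smo and 9.24, 8.03, 8.70 and 8.78 in NG-Smo. The groups did not overlap, but NG-Smo replicate 1 lay close below the lowest GFD-Smo array. The change of 0.88 (SE 0.24) lay just inside the threshold (limma, adjusted p = 0.0442) and lost its call in 19 of 27 other settings, among them each fit without 1 of the NG-Ptch, GFD-Ptch or GFD-Smo arrays, where adjusted p reached 0.116.

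Grm3, a group II metabotropic receptor abundant in astrocytes, gave the lowest adjusted p of the receptor genes. It read 10.10, 10.44, 10.34 and 9.99 in GFD-Smo and 8.23, 7.82, 7.71 and 7.88 in NG-Smo. The GFD-Smo arrays stood apart from all 14 others, of which none exceeded 8.23, and the change was 2.31 (SE 0.22, 4.95-fold, limma adjusted p = 2.6e-05).

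Grm5, the group I receptor coupled to calcium release, read 9.84, 10.05, 10.01 and 9.88 in GFD-Smo and 9.14, 8.88, 9.66 and 9.15 in NG-Smo. The groups did not overlap, and NG-Smo replicate 3 was the closest. The change was 0.74 (SE 0.19, limma adjusted p = 0.0294). The call was lost without NG-Smo replicate 1 (0.0692), 2 (0.0789) or 4 (0.062) and without any 1 GFD-Smo array (0.0568 to 0.089).

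Gria1, the GluA1 subunit of AMPA receptors, differed by 1.59 without being called (limma, adjusted p = 0.152). Its GFD-Smo arrays read 11.28, 11.23, 11.17 and 11.31 and its NG-Smo arrays 9.89, 9.27, 9.44 and 10.05, and the groups did not overlap. The shared estimate of spread also drew on GFI-Ptch, where the same gene read 10.61, 10.11, 8.89 and 6.59. Without the transplanted tumour, which held the lowest of these values, the same change was called (adjusted p = 0.0027), and so it was with only the Smo groups in the fit (adjusted p = 0.00123). Gabra2 (0.83, or 0.54 without NG-Smo replicate 2), Gabra6 (0.81) and Grin3a (0.80) were the next largest changes that were not called.

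**Figure D2:**
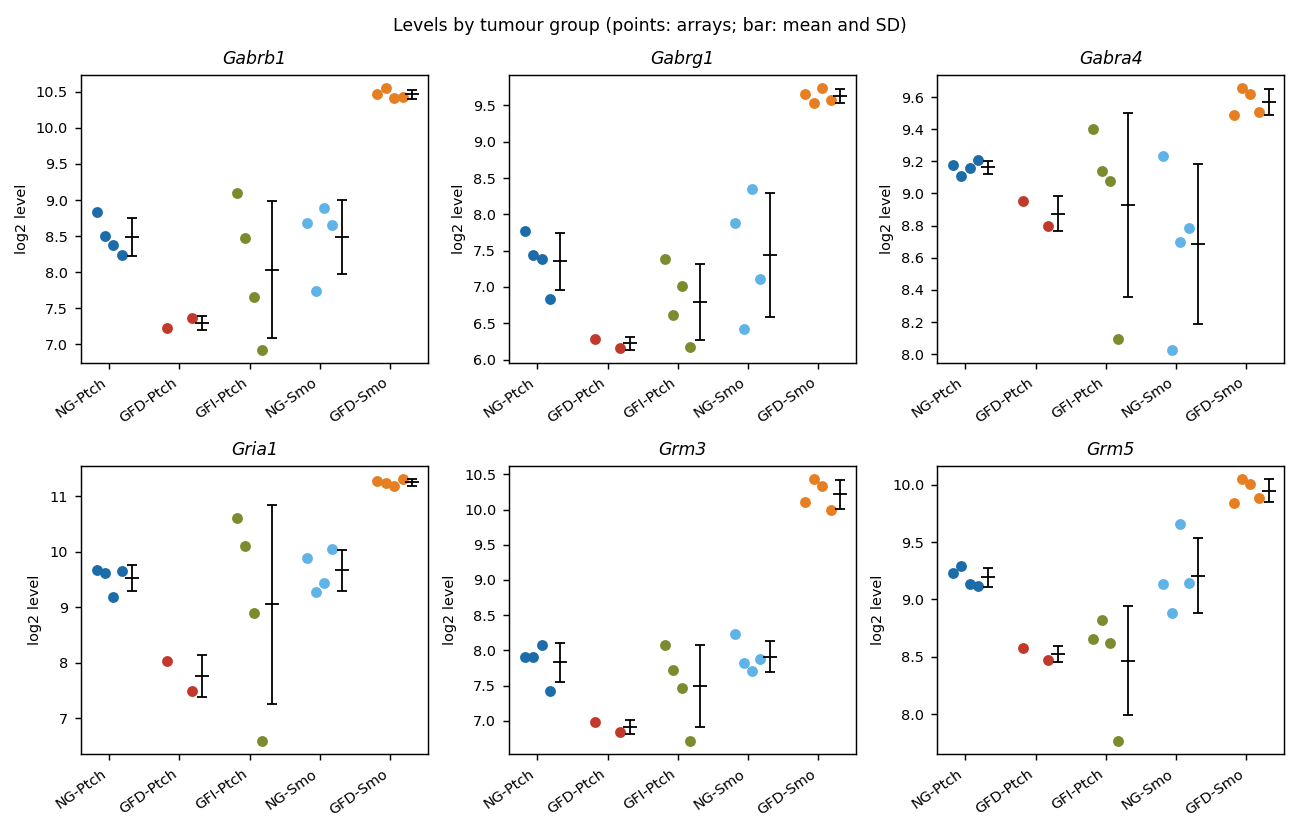
Log2 levels (vertical axes) of 6 receptor genes in the 5 tumour groups, with a point per array and a bar for the mean and SD of the group (n = 4, or 2 in GFD-Ptch). In each panel the 4 GFD-Smo arrays lie above all others, and both GFD-Ptch arrays lie below all NG-Ptch arrays.

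Several of these genes are neighbours. Gabrg1, Gabra2, Gabra4 and Gabrb1 follow each other on chromosome 5 in RefSeq (GRCm38.p6). Gabrg1 lies at chr5:70751047-70842617, Gabra2 at chr5:70958392-71095849, Gabra4 at chr5:71569734-71658308 and Gabrb1 at chr5:71657921-72149572. The first 3 are on the minus strand and Gabrb1 is on the plus strand, and the starts of Gabra4 and Gabrb1 overlap head to head by 388 bases. All 4 were higher in GFD-Smo than in NG-Smo in group mean, and 3 were called. Gabra2, the alpha2 subunit, read 8.34, 8.51, 8.20 and 7.98 in GFD-Smo and 7.93, 6.55, 7.18 and 8.05 in NG-Smo, and its groups overlapped (adjusted p = 0.183 by limma). Grm3 lies elsewhere on the same chromosome, at chr5:9485236-9725352. Other neighbours were compared in the same way. On chromosome 11 Gabra6 and Gabrb2 were both higher in GFD-Smo than in NG-Smo in group mean, by 0.81 and 0.65, and neither was called. On chromosome 7 Gabrg3 and Gabra5 changed by 0.22 and -0.06 and neither was called. On the X chromosome Gabre, Gabra3 and Gabrq changed by -0.09, 0.56 and 0.19, with no call. On chromosome 4 Gabrr2 and Gabrr1, 36690 bases apart, changed by -0.09 and -0.0011, with no call. The files do not place the array's probes within genes, so which transcripts the head-to-head pair was read from is not known.

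The 200 bases upstream of the annotated start are shown for these 4 neighbours and for Grm3, since these genes had the largest called changes or lie beside them, and Gabra2 is the neighbour that was not called. They are RefSeq sequences of GRCm38.p6, written 5′ to 3′ on the strand of each gene, and capitals mark matches to a GC box (GGGCGG or CCGCCC) or a CCAAT box (CCAAT or ATTGG). The windows are chr5:70842618-70842817 for Gabrg1, chr5:71095850-71096049 for Gabra2 and chr5:71658309-71658508 for Gabra4, all on the minus strand, chr5:71657721-71657920 on the plus strand for Gabrb1, and chr5:9725353-9725552 on the minus strand for Grm3.
Gabrg1: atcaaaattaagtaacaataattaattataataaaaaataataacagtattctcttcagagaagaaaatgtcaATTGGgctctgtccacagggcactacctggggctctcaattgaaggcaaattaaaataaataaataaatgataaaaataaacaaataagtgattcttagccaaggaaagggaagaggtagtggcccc
Gabra2: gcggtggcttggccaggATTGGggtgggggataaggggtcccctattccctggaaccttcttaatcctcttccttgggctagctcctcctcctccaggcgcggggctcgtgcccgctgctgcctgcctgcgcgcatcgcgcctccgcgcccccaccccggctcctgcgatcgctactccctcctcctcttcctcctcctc
Gabra4: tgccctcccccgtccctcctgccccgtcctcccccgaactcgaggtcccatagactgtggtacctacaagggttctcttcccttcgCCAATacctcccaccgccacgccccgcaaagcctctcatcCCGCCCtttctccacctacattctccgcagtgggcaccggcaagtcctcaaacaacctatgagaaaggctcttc
Gabrb1: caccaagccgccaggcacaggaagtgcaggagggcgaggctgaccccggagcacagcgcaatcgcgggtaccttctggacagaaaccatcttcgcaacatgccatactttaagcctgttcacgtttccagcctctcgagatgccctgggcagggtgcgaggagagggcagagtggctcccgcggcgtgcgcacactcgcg
Grm3: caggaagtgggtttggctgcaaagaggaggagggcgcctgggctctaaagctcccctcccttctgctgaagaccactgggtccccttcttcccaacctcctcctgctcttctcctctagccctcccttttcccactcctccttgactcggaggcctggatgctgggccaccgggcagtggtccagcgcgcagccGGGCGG

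These upstream windows differed in base composition. Gabrg1 had 31.5% G and C and 0 CpG dinucleotides, whereas Gabra2 had 68%, Gabra4 61%, Gabrb1 63.5% and Grm3 64.5%, against a median of 53% over 32851 windows of the same length. The window of Gabrb1 held none of the motifs searched. Windows were found for 29 of the 39 receptor genes. A GC box was present in 13 of these 29, against 31% of all windows, and a CCAAT box in 13, against 29.3%. A TATA box (TATAAA or TTTATA) was present in 3, against 9.96%. The binding sequence of the Hedgehog effector Gli1 (GACCACCCA or TGGGTGGTC) was found in 0 of the 29, against 0.161% of all windows. Both strands were searched, matches of different motifs could overlap, and a match describes the letters of a window only.

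The next question was whether the same receptors separated GFD from NG tumours in Ptch mice. Between these groups limma called no receptor gene (0 of 39, against 0.01% of all genes), and 8 of 39 had an unadjusted p under 0.05, against 16.9% of all genes. The median change was 0.03 over the receptor genes and 0.04 over all genes. The largest differences pointed the other way from the Smo tumours. Gria1 read 8.03 and 7.49 in GFD-Ptch and 9.67, 9.61, 9.18 and 9.65 in NG-Ptch (change -1.77, SE 0.71, adjusted p = 0.254). Gabrb1 read 7.23 and 7.37 against 8.84, 8.50, 8.37 and 8.24 (change -1.19, adjusted p = 0.224). Gabrg1 read 6.28 and 6.16 against 7.78, 7.44, 7.38 and 6.83 (change -1.13, adjusted p = 0.231). In each of these 3 genes both GFD-Ptch arrays lay below all NG-Ptch arrays. The same was seen for Grm3, at 6.98 and 6.84 against 7.91, 7.91, 8.07 and 7.42. It was also seen for Grin3a, an NMDA subunit that lowers calcium entry, at 8.62 and 7.76 against 9.39, 9.29, 9.06 and 8.83 (change -0.96). Gabrq, among others, separated in this way at a change of only -0.03. For Gabrp, Gabrr2, Gabrr3 and Grm2 both GFD-Ptch arrays lay above all NG-Ptch arrays. How many of all genes separated between these groups was not counted.

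These calls differed between fits. Without the transplanted tumour Gria1 (adjusted p = 0.0364) and Grm3 were called lower in GFD-Ptch by limma. With only these 2 groups in the fit Gabrb1 (0.0287), Gria1 (0.0139) and Grm5 were. With gender as a covariate the changes were smaller, at -0.98 for Gria1, -0.71 for Gabrb1 and -0.36 for Grin3a, while Gabrg1 stood at -1.07. Without GFD-Ptch replicate 2 Grin3a changed by -0.53.

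The GFD minus NG difference was then compared directly between the models, which share no arrays in this contrast. It differed for 4 of 39 receptor genes (10.3%), against 3.81% of all genes, and all 4 were higher in the Smo model, a direction called in 2.4% of all genes. The 4 were Grm3 at 3.23 (SE 0.35, limma adjusted p = 0.00027), Gabrg1 at 3.32 (SE 0.53, adjusted p = 0.00406), Gabrb1 at 3.16 (SE 0.55, adjusted p = 0.00616) and Grm5 at 1.41 (SE 0.30, adjusted p = 0.0163). Gria1 had a difference of similar size, 3.35, and missed the threshold (adjusted p = 0.0549). It passed without the transplanted tumour (adjusted p = 0.000722), without GFI-Ptch replicate 1 (0.0294) or 2 (0.048) and without the 3 arrays that go against their gender label (0.00794). Grin3a (1.76, adjusted p = 0.0658, or 1.16 with gender as a covariate), Gabra4 (1.17) and Gabra2 (1.08) followed without a call. Without the transplanted tumour Gria1, Grin3a and Gabra4 joined the 4 genes. With the gender label as a covariate only Grm3 and Gabrg1 stayed called by limma, Gabrb1 standing at 2.69 (adjusted p = 0.0617) and Grm5 at 1.13 (adjusted p = 0.135). That covariate treats arrays without a male or female label as a class of their own, among them all NG-Ptch arrays but replicate 1. With the Y-linked level as covariate instead, chosen after seeing the data, Grm3, Gabrg1, Gabrb1 and Grm5 stayed called. Grm5 was also lost without GFD-Ptch replicate 1 (0.0529) or 2 (0.0897).

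Over all members the sign of the GFD minus NG change was opposite between the models for 26 of 39 genes, against 57.7% of all genes. Of these, 16 were lower in GFD-Ptch and higher in GFD-Smo than their NG group, and 10 the reverse, while 12 were higher in both models and 1 was lower in both. Most of these differences were small, and the plot of the changes shows a few genes far from the origin and most of the others close to it.

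**Figure D3:**
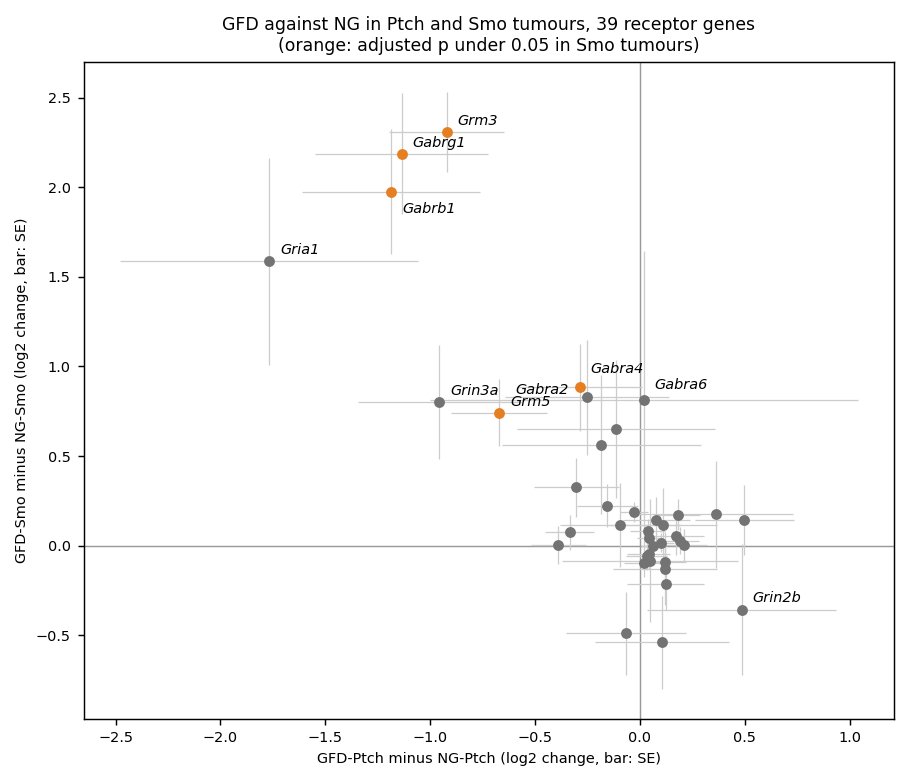
The log2 change from NG to GFD in Ptch tumours (horizontal axis) and in Smo tumours (vertical axis) for 39 receptor genes, with bars for the SE and orange points for the 5 genes called in Smo tumours. Grm3, Gabrg1, Gabrb1 and Gria1 lie to the upper left, lower in GFD-Ptch than NG-Ptch and higher in GFD-Smo than NG-Smo.

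Between GFD tumours of the 2 models more receptor genes were called, as were more of all genes. Between GFD-Smo and GFD-Ptch 8 of 39 genes (20.5%) were called, against 15.6% of all genes, and all 8 were higher in GFD-Smo, a direction called in 8.5% of all genes. The median change was -0.09 over the receptor genes and -0.06 over all genes. The 8 were Gabrg1 at 3.41 (SE 0.41, 10.6-fold, limma adjusted p = 0.000107), Gabrb1 at 3.17 (SE 0.43, adjusted p = 0.000214), Grm3 at 3.31 (SE 0.28, adjusted p = 5.36e-06), Grm5 at 1.42 (SE 0.23, adjusted p = 0.000806), Gria1 at 3.49, Grin3a at 1.69, Gabrg3 at 0.63 and Grik1 at 0.53. The first 4 kept their call in all 27 other settings.

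Each of the other 4 lost its call without 1 of the GFD-Ptch arrays, a fit that leaves a single array in that group and assumes that it varies like the other groups. Gria1 (SE 0.71, 11.2-fold, adjusted p = 0.00418) missed the threshold without GFD-Ptch replicate 2, where its change was 3.22 (0.0673). Grin3a read 9.89, 9.70, 9.78 and 10.11 in GFD-Smo and 8.62 and 7.76 in GFD-Ptch (SE 0.39, adjusted p = 0.00923), and lost its call without GFD-Ptch replicate 2 (change 1.26, adjusted p = 0.18) or with the gender label in the model (0.0582).

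Gabrg3, the gamma3 subunit, and Grik1, a kainate subunit, were both dim genes, with no group mean above 7.803. Gabrg3 read 7.12, 7.29, 7.20 and 7.47 in GFD-Smo and 6.54 and 6.73 in GFD-Ptch (adjusted p = 0.00881). Grik1 read 6.98, 7.03, 6.91 and 6.69 against 6.50 and 6.25 (adjusted p = 0.00694). Neither gene's groups overlapped, but Gabrg3 was lost without GFD-Ptch replicate 1 (change 0.54, adjusted p = 0.0865) and Grik1 without GFD-Ptch replicate 2 (change 0.41, adjusted p = 0.147).

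The largest difference in the other direction was that of Grin2b, the NMDA subunit typical of immature neurons, at -1.30 (adjusted p = 0.0611). It read 8.95, 9.42, 9.10 and 8.76 in GFD-Smo and 10.70 and 10.03 in GFD-Ptch. Its groups did not overlap, and it was called in 5 settings, among them the fits without the transplanted tumour (0.017) or GFI-Ptch replicate 3 (0.041). With only the GFD groups in the fit 19 receptor genes were called, but the share of all genes called in that fit was not counted.

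The NG tumours were then compared between the Smo and Ptch models. No receptor gene was called between NG-Smo and NG-Ptch by limma (0 of 39, against 1.04% of all genes), and 5 of 39 had an unadjusted p under 0.05, against 10.6% of all genes. The median change was -0.03 over the receptor genes and 0.01 over all genes. Gabrb1 averaged 8.49 ± 0.51 in the NG-Smo arrays against 8.49 ± 0.26 (SD, n = 4 per group) in NG-Ptch. Gria1 averaged 9.66 ± 0.37 against 9.53 ± 0.23. Alpha subunits gave the largest differences, with Gabra3 at -0.89 (adjusted p = 0.417), Gabra2 at -0.78 and Gabra4 at -0.48, and Grin2b followed at -0.46. Without NG-Smo replicate 2 the last 3 were smaller, at -0.49 for Gabra2, -0.26 for Gabra4 and -0.28 for Grin2b.

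The GFI tumours were compared with both other Ptch groups. The largest differences were those of Gabra3, the alpha3 subunit, Grin2b, Grm4 and Gria1, and none was called. In GFI-Ptch minus NG-Ptch limma called 0 of 39 receptor genes, against 0.0% of all genes, and 7 of 39 had an unadjusted p under 0.05, against 8.53% of all genes. The median change was -0.10 over the receptor genes and 0.02 over all genes. Between GFI-Ptch and GFD-Ptch 0 of 39 were called, against 0.00502% of all genes, and 7 had an unadjusted p under 0.05, against 9.79% of all genes.

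Gabra3 read 7.69, 8.94, 8.12 and 6.74 in GFI-Ptch, 9.85, 9.47, 9.70 and 9.20 in NG-Ptch and 10.02 and 8.72 in GFD-Ptch. All GFI-Ptch arrays lay below all NG-Ptch arrays (change -1.69, limma adjusted p = 0.19). GFD-Ptch replicate 2 fell within the GFI-Ptch range (change -1.50, adjusted p = 0.343), and the change was -0.85 without GFD-Ptch replicate 1 and -2.15 without replicate 2. Gabra3 was one of the 9 of 39 receptor genes called in the test of any difference among the 5 groups (23.1%, against 13.7% of all genes), where its adjusted p was 0.0376 and was lost in 14 of 26 other settings. The other 8 in that test were Grm3, Gabrg1, Gabrb1, Grm5, Gabrg3, Grin3a, Gria1 and Grik1.

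Grm4, the group III receptor of granule cell terminals, read 7.64, 7.99, 8.18 and 8.20 in GFI-Ptch and 9.09, 8.61, 8.79 and 8.85 in NG-Ptch, with no overlap (change -0.83, adjusted p = 0.433 by limma, and -1.46 with gender as a covariate). Grin2b read 9.50, 8.85, 9.95 and 7.87 in GFI-Ptch and 9.68, 10.21, 9.40 and 10.22 in NG-Ptch, and its groups overlapped (change -0.84, or -0.45 without the transplanted tumour). Gabra2 differed by -0.87 (adjusted p = 0.45). Neuronal and glial markers differed between the same groups. The mean of 12 differentiated granule neuron markers was 9.94 to 10.27 in GFI-Ptch and 10.66 to 10.76 in NG-Ptch, with no overlap, a median change of -0.58 and an unadjusted p under 0.05 for 7 of 12. Oligodendrocyte progenitor markers had a mean of 8.15 to 10.05 against 10.06 to 10.53, with a median change of -1.02 and an unadjusted p under 0.05 for 8 of 9. None of these markers was called by limma, and their part in the receptor differences was not tested.

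Gria1 was spread more widely within GFI-Ptch than any other receptor gene. Its GFI-Ptch arrays ran from 10.61 down to 6.59, and the SD of 1.79 compares with 0.06 in GFD-Smo. GFI-Ptch minus GFD-Ptch was 1.29 (adjusted p = 0.566), and without the transplanted tumour 2.11 (adjusted p = 0.0292), the single receptor gene called in that fit. It was 0.77 without GFI-Ptch replicate 1 and 0.76 with gender as a covariate.

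The transplanted tumour had the lowest of 18 values for 23 of 39 receptor genes, whereas it was the lowest array for 14.8% of all genes. Among the 23 receptor genes with a group mean above 7.803 it was the lowest for 16, against 12.7% of all genes with such a mean. Muscle markers stood at a mean of 10.81 in this array and 7.06 to 7.21 in the other GFI-Ptch arrays. Differentiated granule neuron markers stood at 9.94 against 10.13 to 10.27, and granule neuron progenitor markers at 11.33 against 11.90 to 11.97. Oligodendrocyte progenitor markers stood at 8.15 against 9.21 to 10.05, and astrocyte markers at 8.49 against 9.33 to 10.50. Whether these play a part in the low receptor levels was not tested.

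Of the remaining GABA-A subunits, the epsilon, pi, theta and 3 rho subunits, the last known mainly from the retina, all stayed under 7.803 in every array, with levels spanning 0.21 (Gabrr1) to 0.48 (Gabrr3). Gabra5 was in the same low range, 5.88 to 6.34. Gabrd, the delta subunit of extrasynaptic receptors, ranged from 7.24 to 7.90.

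The granule cell subunit Gabra6 differed widely among arrays of the same group. It read 9.77, 8.91, 9.57 and 6.48 in GFD-Smo, 10.03, 7.77, 6.98 and 6.70 in NG-Smo and 9.41, 6.73, 8.59 and 6.75 in NG-Ptch. Each of these groups held arrays near the lowest level of all, 6.34, beside arrays that were far higher. Its largest change, 0.81 between GFD-Smo and NG-Smo, had an adjusted p of 0.8 (limma) and, with single arrays left out, ranged from 0.42 without NG-Smo replicate 4 to 1.55 without GFD-Smo replicate 4. Its neighbour Gabrb2, 98442 bases away on chromosome 11, read 10.11, 9.77, 10.06 and 8.74 in GFD-Smo and 9.86, 8.73, 9.00 and 8.47 in NG-Smo, and the same 3 arrays, NG-Smo replicate 1 and GFD-Smo replicates 1 and 3, were highest for both genes. Markers of Purkinje cells, neurons of the normal cerebellum outside the tumour lineage, stood at a mean of 9.54 to 9.94 in GFD-Smo replicates 1 to 3 and at 7.56 in replicate 4, and at 8.92 in NG-Smo replicate 1 against 7.34 to 7.75 in the other NG-Smo arrays. The 4 Smo tumours with the highest Gabra6 were also the 4 with the highest Purkinje marker means. The same 4 were highest for the means of differentiated granule neuron and cerebellar interneuron markers. The granule neuron mean was 10.62 to 10.73 in GFD-Smo replicates 1 to 3, 10.27 in replicate 4 and 10.91 in NG-Smo replicate 1. The interneuron mean was 8.20 to 8.52, 7.47 and 7.94 in the same arrays. The part of these cell types in the Gabra6 and Gabrb2 levels was not tested.

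**Figure D4:**
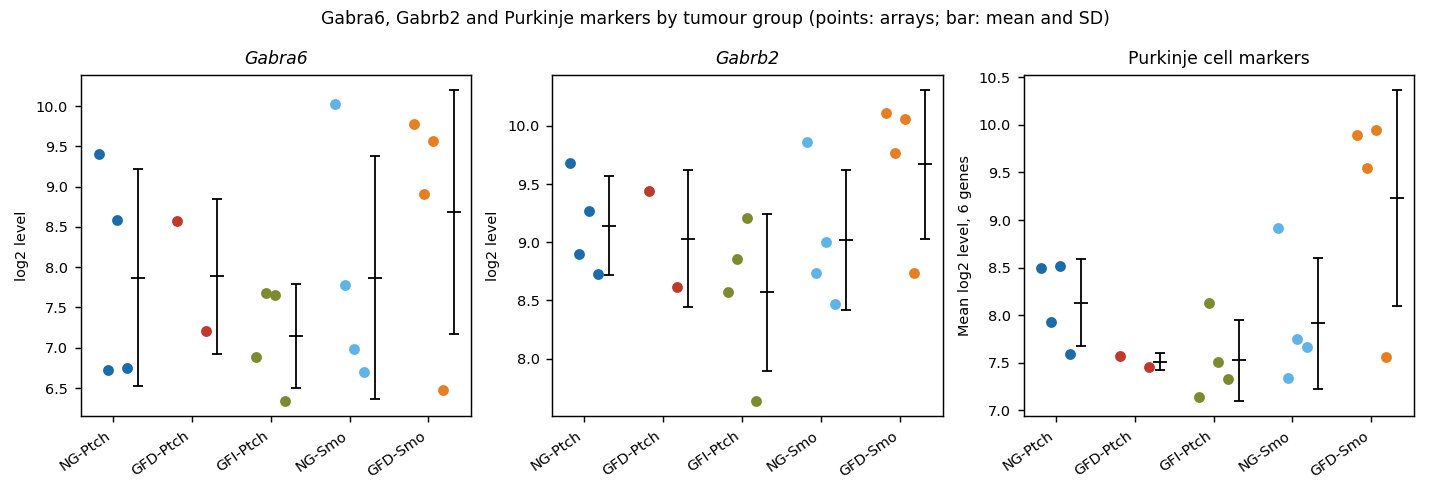
Log2 levels of Gabra6 and Gabrb2 and the mean log2 level of 6 Purkinje cell markers (vertical axes) in the 5 tumour groups, with a point per array and a bar for the mean and SD. Replicate 4 of GFD-Smo, the last orange point, is low in all 3 panels, and replicate 1 of NG-Smo, the first light blue point, is the highest of its group in all 3.

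The AMPA subunit Gria2, which makes the channel impermeable to calcium, was called in no comparison. It ranged from 11.47 to 12.46 over all arrays and its change between GFD-Smo and NG-Smo was -0.21 (adjusted p = 0.601 by limma). Gria3 ranged from 9.77 to 10.91 and Gria4 from 10.10 to 11.82, and neither was called in any comparison. The kainate subunits Grik2, Grik3, Grik4 and Grik5 were called in none either, with ranges of 1.07, 2.14, 1.15 and 0.58. Of the NMDA subunits Grin2a, Grin2c, Grin2d and Grin3b were dim and not called. Grid1, a synapse-organizing delta receptor, ranged from 8.89 to 9.67, and the metabotropic receptors Grm2 and Grm7 from 7.66 to 8.20 and from 7.41 to 8.95. Grm6, the receptor of retinal bipolar cells, and Grm8 stayed under 7.803. In all, 10 of 39 receptor genes were called in some test and 29 in none. The share of all genes called in some test was not counted, and the comparison of GFD-Smo with GFD-Ptch alone called 15.6% of them.

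Astrocyte and Bergmann glia markers moved with the receptors called higher in GFD-Smo. The mean level of all 13 listed markers, which include Fabp7, Slc1a2, Slc1a3 and Aldoc, was 11.16 to 11.22 in GFD-Smo, 9.71 to 10.13 in NG-Smo, 9.92 to 9.96 in NG-Ptch, 8.88 to 9.13 in GFD-Ptch and 8.49 to 10.50 in GFI-Ptch. All 13 were above 0 in GFD-Smo minus NG-Smo, with 6 called and a median change of 1.23. All 13 were above 0 in GFD-Smo minus GFD-Ptch too, with 11 called and a median of 2.20. In GFD-Ptch minus NG-Ptch all 13 were below 0, with a median of -1.02 and 0 called. The GFI-Ptch arrays ranked alike for the marker mean, at 10.50, 10.10, 9.33 and 8.49, and for Gria1 and Gabrb1, but not for Gabrg1, which read 7.38, 6.62, 7.02 and 6.17 in the same arrays. The part of astrocyte content in the receptor differences was not tested. Oligodendrocyte progenitor markers, another type that carries AMPA receptors, stood at 10.38 to 10.58 in GFD-Smo and 9.69 to 10.90 in NG-Smo, with 0 of 9 called between them. In GFD-Smo minus GFD-Ptch all 9 were above 0, with 4 called. In GFD-Ptch minus NG-Ptch all 9 were below 0, with 0 called, 5 at an unadjusted p under 0.05 and a median of -0.77. Their mean was 9.22 to 9.34 in GFD-Ptch and 10.06 to 10.53 in NG-Ptch, so these markers moved with the receptors there, and their part was not tested. All 6 Purkinje markers were above 0 in GFD-Smo minus NG-Smo (median 1.27, 0 called) and in GFD-Smo minus GFD-Ptch (3 called). In GFD-Ptch minus NG-Ptch all 6 were below 0, with 0 called. All 6 interneuron and all 7 muscle markers were above 0 in both GFD-Smo contrasts, with 1 and 0 called in each. In GFD-Ptch minus NG-Ptch 4 and 5 of them were above 0. The part of these cell types was not tested.

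**Figure D5:**
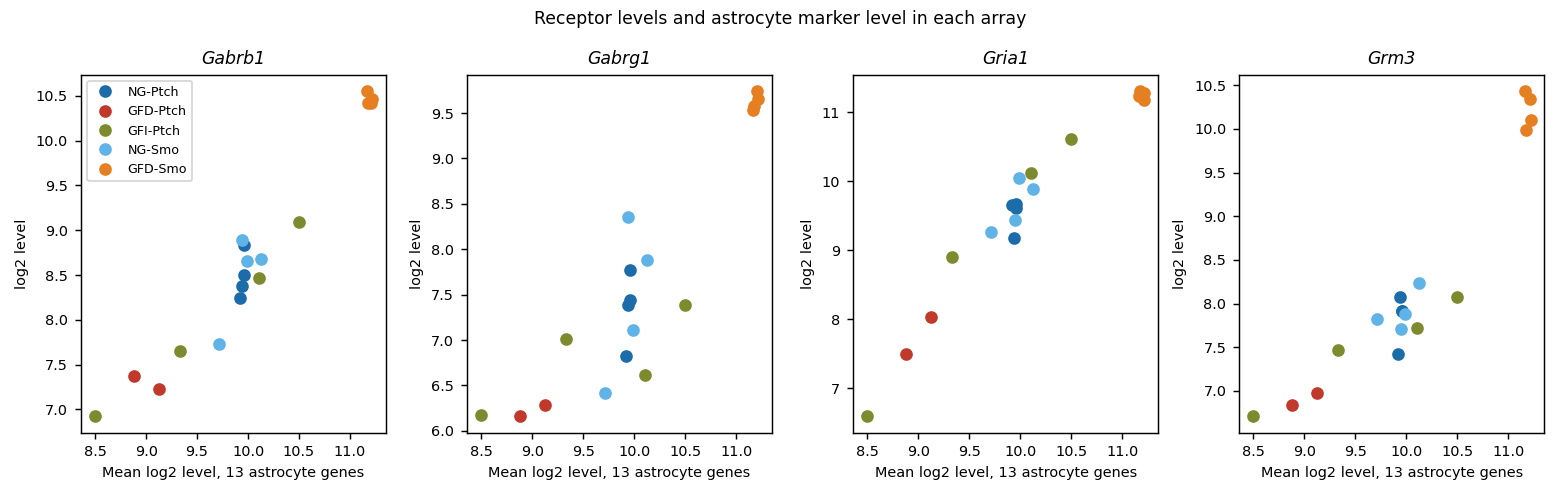
The log2 level of 4 receptor genes (vertical axes) against the mean log2 level of 13 astrocyte and Bergmann glia markers (horizontal axis), with a point per array coloured by tumour group. The 4 GFD-Smo arrays lie at the upper right at marker means of 11.16 to 11.22, and GFD-Ptch and the transplanted tumour lie at the lower left.

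The partners of these receptors were read from 8 lists with 68 measured genes of 75, covering transmitter synthesis, uptake, chloride transport, GABA-B receptors, scaffolds, auxiliary subunits and extracellular organizers. In GFD-Smo minus NG-Smo 5 of 68 were called (7.35%, against 5.31% of all genes), all higher, with a median change of 0.12. They were Gabbr2, a subunit of the G protein-coupled GABA-B receptor, at 10.58 ± 0.27 against 8.74 ± 0.59 (SD, n = 4 each, change 1.84, limma adjusted p = 0.00316), the AMPA receptor auxiliary subunit Shisa6 (1.07), the GABA-degrading enzyme Abat (0.88), glutamine synthetase Glul (0.81) and the AMPA receptor scaffold Grip1 (0.63). Of 14 auxiliary subunits 1 was called, of 18 excitatory scaffold genes 1, and of 7 inhibitory scaffold genes 0.

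In GFD-Smo minus GFD-Ptch 13 partners were called higher and 5 lower, 26.5% of 68 against 15.6% of all genes. The higher ones included the glial glutamate transporter Slc1a3 (2.20), which is also one of the astrocyte markers, the kainate receptor auxiliary subunit Neto1 (1.78), the AMPA receptor auxiliary subunit Cacng4 (1.55), Abat (1.52), Shisa6 (1.50) and the GABA transporter Slc6a13 (1.28). The 5 lower ones were Cacng3 (-1.20), Lhfpl4 (-0.72), Gabarapl1 (-0.66), Cnih2 (-0.55) and Camk2b (-0.48), of which Lhfpl4 and Gabarapl1 belong to the inhibitory synapse list. The GFD minus NG difference differed between the models for 6 partners (8.82%, against 3.81% of all genes), all higher in Smo, which were Slc1a3, Cacng4, Shisa6, Abat, Glul and Grip1. Cacng3 was the single partner called between NG-Smo and NG-Ptch (-1.25, adjusted p = 0.0378), and 0 partners were called in the 3 comparisons among Ptch groups.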

How the data were processed

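RNA from 18 mouse medulloblastomas in 5 groups had been hybridized to Affymetrix mouse Gene ST 1.0 arrays, and the authors deposited log2 values for 35556 probe sets. The base was read from the range of the values. Partek 6.6 was used per the submitters' processing notes, while background correction, normalization and probe summary are not given in the sources used here. Of the probe sets 21789 had 1 gene symbol and 1621 had several. The brightest single-symbol set stood for each of 19938 genes, and Gabrb2 was the only member with more than 1. No filter was applied.

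All arrays were fitted together in limma 3.58.1 (R 4.3.3), with a mean per group and 13 residual plus 2.448 prior degrees of freedom. Two-sided moderated tests were adjusted by Benjamini-Hochberg over all genes and called under 0.05. The fit was tested on simulated data. Changes are log2 differences with SE. Where groups are said not to overlap, the share of all genes that separate between the same groups was not counted. Tables and plots used Python 3.11.15 and matplotlib 3.10.9.

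Members and lists were chosen with earlier results of these data known. Members called in a comparison were described array by array, up to 4 more per comparison with the largest change were named, and the rest were given by range. Partners were named where called, at most 4 per list and comparison, and markers up to the 4 brightest of a list. Alternatives were quantile normalization, median centring, a filter on dim genes, the mean of a gene's probe sets, only the groups compared, the gender label as covariate, a replicate block and leaving out each array. The Y-linked level as covariate and leaving out the 3 arrays against their gender label were chosen after seeing the data. The number of arrays limits the precision. Promoter windows are RefSeq's for GRCm38.p6, matched by gene identifier for 29 of 39 members. The window nearest the start of the gene was used. It lay 0 bases from that start for the genes whose sequence is shown, and as far as 80957 bases for Gabra5.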

Additional observations from a re-analysis of the deposited data

Results flagged for a closer look

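The GFD minus NG change differed between Smo and Ptch tumours for 4 receptor genes by the limma test of the difference itself, by 3.16 for Gabrb1, 3.32 for Gabrg1, 1.41 for Grm5 and 3.23 for Grm3. Subtype and Cre driver cannot be told apart in the Smo tumours, and sex and subtype cannot be told apart between GFD-Ptch and NG-Ptch.

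In 60 sets of 4 arrays (the levels of 15 named members in each of the 4 groups of that size) 3 held an array far from the others, where chance alone gives about 1 in 20. Gria1 read 9.18 in NG-Ptch replicate 4, against 9.61 to 9.67 in the other NG-Ptch arrays. Gabra2 read 7.53 in the same array, against 8.38 to 8.54. Gabra3 read 9.49 in NG-Smo replicate 3, against 8.34 to 8.46 in the other NG-Smo arrays.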

How the results depend on the processing

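In 27 other settings there were 1445 comparisons of a named change, of which 1344 kept their direction and side of the threshold. A call was lost in 74 and gained in 27. Direction reversed in 0, but many comparisons could not reverse. The test of any difference has no direction, and leaving out an array of a group not compared leaves the change as it was. Grm3, Gabrg1 and Gabrb1 kept their calls between GFD-Smo and NG-Smo in all 27. Receptor genes called between GFD-Smo and NG-Smo, 5 in the reported fit, numbered 3 to 7 when single arrays were left out. Between GFD-Smo and GFD-Ptch, 8 as reported, they numbered 19 with only the groups compared and 5 to 11 without single arrays. For the difference between the models, 4 as reported, they numbered 7 with only the groups compared, 2 with the gender label as covariate and 3 to 7 without single arrays. For any difference among the 5 groups, 9 as reported, they numbered 5 without the 3 arrays against their gender label and 5 to 12 without single arrays. The count of 0 between GFD-Ptch and NG-Ptch became 3 with only the groups compared and 0 to 2 without single arrays, and that between GFI-Ptch and GFD-Ptch 0 to 1 without single arrays. The highest count without a single array came without the transplanted tumour, except for any difference among the 5 groups, where it came without NG-Smo replicate 4, and the lowest for that test came without GFD-Smo replicate 1. The share of all genes called was not counted for these other fits, and the cause of these shifts was not tested. With the replicate block the counts were 4 between GFD-Smo and NG-Smo, 9 between GFD-Smo and GFD-Ptch, 4 for the difference between models and 7 for any difference. Of 29 pairs of arrays with the same replicate number, 4 had deviations correlated above 0.1 (-0.31 to 0.19). Pairs with different numbers were not set beside them, so whether the replicate numbers pair the arrays is not known. Under the filter on dim genes, which keeps 23 members, the median receptor change became 0.33 between GFD-Smo and NG-Smo (0.12 over all 39). It became 0.36 between GFD-Smo and GFD-Ptch and 0.63 for the difference between the models. This filter keeps a gene whose mean passes 7.803 in any 1 group, as Gabrg1 did in GFD-Smo alone (9.63, elsewhere 6.22 to 7.44). These medians thus rest on genes chosen partly by their level in the groups compared, and the median over all kept genes is not given here.

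The limits are the number of arrays, 2 in GFD-Ptch, unstated normalization, 16 members with no group mean above 7.803, and 3 arrays that go against their gender label.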

Other observations

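Grm7, a group III receptor of presynaptic terminals, had its highest group mean in GFI-Ptch, at 8.44 ± 0.48, and its lowest in GFD-Smo, at 7.57 ± 0.09 (SD, n = 4 each), with no call in any comparison. Every GFI-Ptch array lay above every GFD-Smo array for this gene. These groups were picked as the highest and lowest, and no test compared them. How many of all genes separate between them was not counted. The mean of 8 microglia and macrophage markers was 9.56 to 9.60 in NG-Smo and 8.90 to 9.40 in NG-Ptch, and the groups did not overlap. The mean of 6 oligodendrocyte markers was 10.04 in NG-Smo replicate 4, while the remaining NG-Smo arrays lay at 8.21 to 8.72.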
